A study of Mus musculus with 4 samples.

Results

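A list of genes tied to the start of meiotic recombination, when DNA is broken, was examined: Spo11, Prdm9, Zcwpw1, Mei1, Mei4, Ccdc36 and Rec114. They were picked by name, and 6 of the 7 were found under these symbols among the 23980 RefSeq genes measured. The seventh, Rec114, was listed under its older symbol 2410076I21Rik. It is described beside the others but is not in counts out of 6.

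At leptotene SPO11 cuts both strands of the DNA, and repair of these double-strand breaks pairs the homologous chromosomes. In the mouse PRDM9, a zinc finger methyltransferase of histone H3, chooses where the breaks are made, and ZCWPW1 reads the marks that PRDM9 leaves. MEI4, REC114 and CCDC36 (also called IHO1) form assemblies on the chromosome axis without which SPO11 makes no breaks, and MEI1 is required at the same step.

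Polyadenylated RNA was sequenced from leptotene/zygotene (L/Z) spermatocytes sorted by flow cytometry from mice of 3 to 4 weeks, all F1 hybrids of C57BL6/J and MSM/Ms. Of the 4 libraries, a Pld6 KO and a Dnmt3L KO were the mutants. A Dnmt3L heterozygote and a Pld6 WT made up the controls, numbered 1 and 2 in that order. Pld6 encodes a nuclease of the piRNA pathway and Dnmt3l a cofactor of germline DNA methylation. The study used the hybrids to read transcripts by parental allele, where a retrotransposon is present in one strain; here total levels of the genotypes are compared. The labels do not say how many animals gave each library. The study reports that germ cells of both mutants die at late zygotene, so that the L/Z cells are the last meiotic cells in mutant testes. Each mutant had 1 library, so mutant values carry no replicate error. Errors of control means are the SD of libraries that differ in genotype and in line.

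The libraries held from 30439943 fragments in genes (Pld6 KO) to 63875934 (Dnmt3L heterozygote). Pld6 was at 0.334 FPKM (fragments per kilobase of transcript and of library depth) in its KO against 8.55 to 19.5 elsewhere. Dnmt3l was at 0 fragments in its KO, but was low everywhere, at 0.432 to 1.27 FPKM. The labelled stage was checked on 16 L/Z markers, none of which was at 0 in any library. Their median level was 92.2 FPKM in the Dnmt3L heterozygote, 218 in Pld6 WT, 118 in Pld6 KO and 67.2 in Dnmt3L KO. Other cells were present unevenly. The 16 Sertoli cell markers summed to 9862 FPKM in the Dnmt3L heterozygote and 12951 in Dnmt3L KO, against 286 in Pld6 WT and 797 in Pld6 KO. The 16 pachytene markers had medians of 42.6 and 35.5 FPKM in the controls, and of 2.52 (Pld6 KO) and 2.47 (Dnmt3L KO) in the mutants. The part of these differences in the results given here was not tested, and in such bulk libraries fewer cells of a type and less RNA per cell cannot be told apart.

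**Figure D1:**
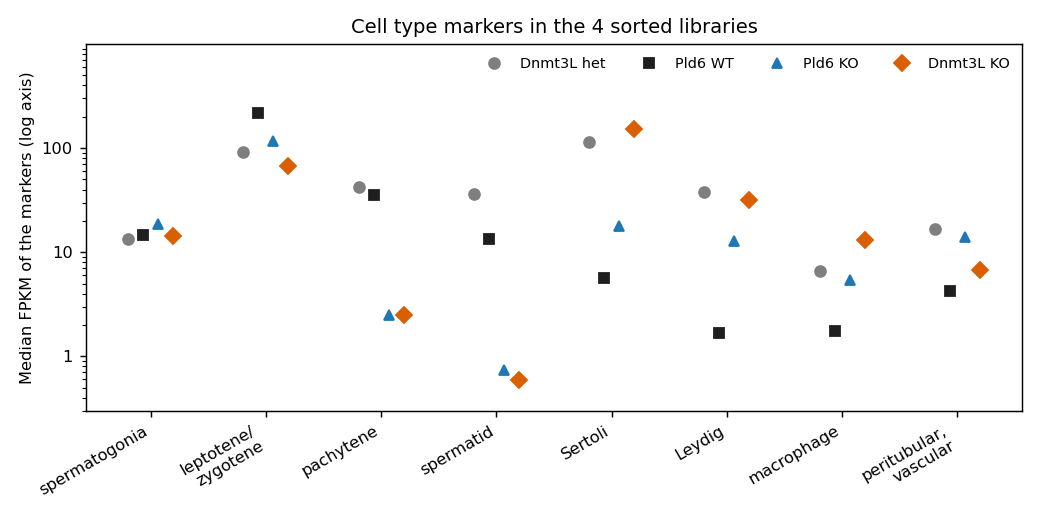
Median FPKM (log axis) of each list of cell type markers in the 4 libraries. L/Z markers are highest in Pld6 WT (218 FPKM), Sertoli markers are high in both libraries of the Dnmt3L line, and pachytene and spermatid markers are low in both mutants.

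The promoter windows of the members were compared. Windows of 250 bases before to 50 after the transcription start were read from RefSeq on GRCm38.p6, which has the coordinates of mm10. They covered 6 of the 7 members, not Spo11, in 8 windows. The windows printed are those that hold a match to any of 5 motifs, and capitals mark the matches. CNCCTCAG is the motif of the meiotic entry factor STRA8, GCGGGAA that of E2F factors, CACGTG the E-box, CCAAT that of NF-Y and TGACGTCA that of CREB-like factors. The motifs were chosen after the sequences had been seen, and each was searched on both strands.
Prdm9 promoter (chr17:15564305-15564604, minus strand): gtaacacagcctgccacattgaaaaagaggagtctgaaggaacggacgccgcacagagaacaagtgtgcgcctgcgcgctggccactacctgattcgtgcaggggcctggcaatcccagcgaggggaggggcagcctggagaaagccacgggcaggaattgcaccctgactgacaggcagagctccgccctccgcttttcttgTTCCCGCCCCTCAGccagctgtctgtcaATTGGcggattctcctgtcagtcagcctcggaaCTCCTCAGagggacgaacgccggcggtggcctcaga
Mei4 promoter (chr9:81863420-81863719, plus strand): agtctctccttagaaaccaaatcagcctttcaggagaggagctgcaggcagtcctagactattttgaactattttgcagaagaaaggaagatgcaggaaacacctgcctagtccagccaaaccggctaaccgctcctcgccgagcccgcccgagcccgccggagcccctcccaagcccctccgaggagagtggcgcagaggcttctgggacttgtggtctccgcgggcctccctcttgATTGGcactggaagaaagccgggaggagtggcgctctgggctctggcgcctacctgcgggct
Rec114 promoter (chr9:58741510-58741809, minus strand): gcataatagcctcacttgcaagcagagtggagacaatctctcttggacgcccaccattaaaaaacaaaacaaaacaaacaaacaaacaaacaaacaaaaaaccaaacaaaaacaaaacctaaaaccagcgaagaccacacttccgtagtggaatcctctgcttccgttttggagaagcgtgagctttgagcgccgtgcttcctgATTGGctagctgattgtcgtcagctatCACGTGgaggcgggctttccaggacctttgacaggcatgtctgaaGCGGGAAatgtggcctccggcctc
Ccdc36 promoter (chr9:108431777-108432076, minus strand): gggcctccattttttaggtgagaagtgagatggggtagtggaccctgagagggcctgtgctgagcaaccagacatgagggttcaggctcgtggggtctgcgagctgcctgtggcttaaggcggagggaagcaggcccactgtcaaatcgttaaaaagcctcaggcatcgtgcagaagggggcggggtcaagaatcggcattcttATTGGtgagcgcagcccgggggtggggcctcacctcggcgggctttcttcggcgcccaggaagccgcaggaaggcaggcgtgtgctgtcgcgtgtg

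In Prdm9 the start window printed lies at the 5′ end of the gene. It held CNCCTCAG at positions -41 and 14 from the start, GCGGGAA read on the other strand at -47, and CCAAT on the other strand (printed as ATTGG) at -19. The first of these CNCCTCAG matches and the GCGGGAA match share base 210 of the window. CCAAT on the other strand stood at -46 in both Rec114 and Ccdc36, and at -12 in Mei4. Rec114 also held CACGTG at -19 and GCGGGAA at 26. Its window lies inside the span of the gene (chr9:58652856-58822706, minus strand), not at the 5′ end of that span. CCAAT was thus in 4 of 6 members. Counted by window, as the background is, it was in 4 of 8 windows against 37.4% of all 32851 promoters searched. The shares of all promoters were 7.94% for CNCCTCAG, 4.60% for GCGGGAA and 7.15% for CACGTG. CNCCTCAG was in 1 of 6 members (1 of 8 windows), GCGGGAA in 2 of 6 (2 of 8) and CACGTG in 1 of 6 (1 of 8). TGACGTCA, in 1.79% of all promoters, had no match. The second Prdm9 window, both Zcwpw1 windows and the Mei1 window, which lies inside the gene, held none of the 5. A match describes letters in these windows and is not evidence of binding. CpG content also varied among members. The ratio of CpGs observed to those expected from base content was 0.952 and 1.06 in the Zcwpw1 windows and from 0.353 to 0.710 in the others, against a median of 0.384 over all promoters.

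Spo11 (chr2:172977379-172993576) encodes the catalytic subunit. Its level was 21.8 FPKM in the Dnmt3L heterozygote, 50.9 in Pld6 WT, 21.6 in Pld6 KO and 8.64 in Dnmt3L KO, with a control mean of 36.3 ± 20.5 FPKM (SD, n = 2). Both mutants lay below both controls, but Pld6 KO only just: 95% exact Poisson intervals of the heterozygote (20.9 to 22.8) and of Pld6 KO (20.3 to 23.0) overlapped. Such intervals cover counting error only. Against the control of its own line, Spo11 stood at 42.5% (Pld6 KO) and 39.6% (Dnmt3L KO). Its fragments per FPKM, which depend on the transcript length the authors' tool estimated, varied by 5.52% over libraries, against 0.23% for the other members.

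Prdm9 (chr17:15543072-15564374) was at 19.0 FPKM in the Dnmt3L heterozygote, 58.9 in Pld6 WT, 43.0 in Pld6 KO and 21.1 in Dnmt3L KO. Both mutants thus lay between the controls, whose mean was 38.9 ± 28.2 FPKM (SD, n = 2). Its reader Zcwpw1 (chr5:137787157-137822621) was the most abundant member in every library, at 111, 256, 139 and 88.9 FPKM in the same order. Here Pld6 KO lay between the controls and Dnmt3L KO below both. Zcwpw1 made up from 53.6% (Pld6 KO) to 60.7% (Dnmt3L KO) of the summed FPKM of the 6 members. Exons of Zcwpw1 share 468 bases with Pilra on the opposite strand, 8.21% of its exonic bases, and the strand setting of the counting was not given in the sources used here.

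The cofactors of SPO11 spanned a wide range of levels. Mei1 (chr15:82070074-82126817) was at 16.1, 36.5, 26.7 and 13.9 FPKM in the Dnmt3L heterozygote, Pld6 WT, Pld6 KO and Dnmt3L KO. Ccdc36 (chr9:108403492-108431841) was at 15.1, 39.9, 25.8 and 12.1 FPKM in that order. In both genes Pld6 KO lay between the controls and Dnmt3L KO a little below the lower control. Mei4 (chr9:81863670-82206007), which spans 342338 bases, was the least abundant member in each library, at 3.06, 5.93, 3.47 and 1.84 FPKM. Its intervals in the heterozygote (2.82 to 3.33) and Pld6 KO (3.10 to 3.88) overlapped. Control means were 26.3 ± 14.4 FPKM for Mei1, 27.5 ± 17.6 for Ccdc36 and 4.50 ± 2.03 for Mei4 (SD, n = 2).

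Rec114 (chr9:58652856-58822706), the partner of MEI4, had another pattern. It was at 39.0 FPKM in the Dnmt3L heterozygote, 29.4 in Pld6 WT, 19.9 in Pld6 KO and 20.6 in Dnmt3L KO. Both mutants lay below both controls, and the heterozygote was the highest rather than Pld6 WT. Its exons share 344 bases, 26.9% of the total, with Nptn on the opposite strand. Nptn was at 83.9, 57.2, 69.8 and 97.5 FPKM in the same order, so reads of the neighbor may enter this value, and this was not tested.

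**Figure D2:**
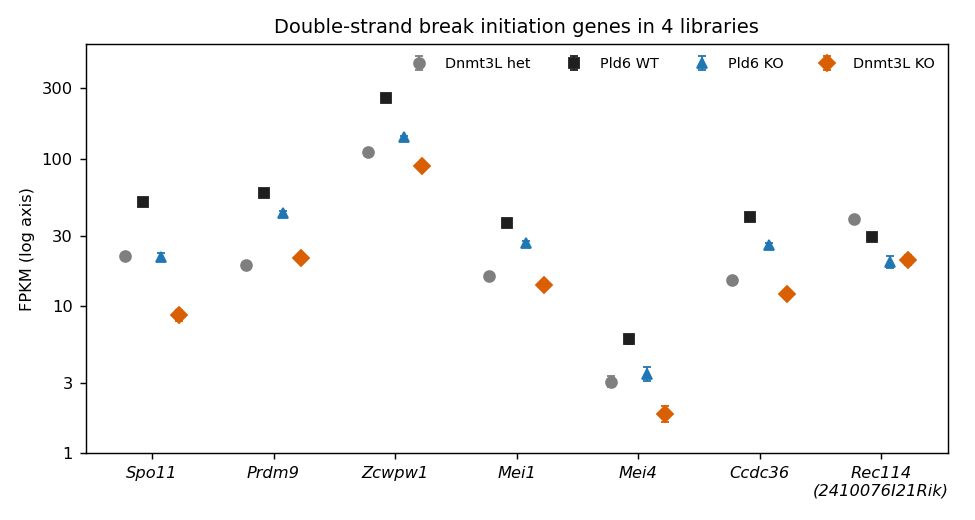
FPKM (log axis) of the 7 members in the 4 libraries, with 95% exact Poisson counting intervals as bars. For the 6 members other than Rec114 Pld6 WT is the highest point, and Spo11 in Dnmt3L KO (8.64 FPKM) lies furthest below its controls.

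The controls themselves differed widely. Pld6 WT exceeded the Dnmt3L heterozygote by 3.10-fold in Prdm9, 2.64-fold in Ccdc36, 2.33-fold in Spo11, 2.30-fold in Zcwpw1, 2.27-fold in Mei1 and 1.94-fold in Mei4. On the scale of FPKM + 1, 5 of 6 members were more than 2-fold lower in the heterozygote, against 6.10% of the 14416 genes with a mean of at least 1 FPKM. Their median log2 difference (heterozygote minus WT) was -1.19, and that of the L/Z markers -0.93. The mutants differed the same way. Each of the 6 was higher in the Pld6 line both in the controls and in the mutants, as were 34.1% of all genes. Rec114 was higher in the heterozygote and nearly level in the mutants, where its intervals overlapped. Markers of other cells moved with this difference. Beside the Sertoli markers, the 8 Leydig markers summed to 378 FPKM in the heterozygote against 27.9 in Pld6 WT, and the 16 spermatid markers to 7177 against 206. Their part in it was not tested.

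Compared with the mean of the controls, the members lay on both sides of 0 in Pld6 KO, and their direction turned with the control used. Without the Dnmt3L heterozygote the median log2 difference was -0.62, and without Pld6 WT it was 0.51, with Prdm9 at 1.14. Against the mean of both, the differences were -0.72 for Spo11, -0.40 for Zcwpw1, -0.30 for Mei4, -0.09 for Ccdc36, 0.02 for Mei1 and 0.14 for Prdm9, with a median of -0.19 against -0.05 over all genes. More than 2-fold below both controls lay 0 of 6 members (8.57% of all genes), and more than 2-fold above both 0 of 6 (1.51%). By any amount, 1 of 6, Spo11, was below both (32.4%), and 0 of 6 were above both (31.0%). In Dnmt3L KO the differences were larger, at -1.95 for Spo11, -1.13 for Ccdc36, -1.04 for Zcwpw1, -0.95 for Mei4, -0.87 for Mei1 and -0.85 for Prdm9. Their median was -0.99, against -0.02 over all genes. Only Spo11 was more than 2-fold below both controls, 1 of 6 against 9.16% of all genes, and 0 of 6 were above by that much (3.29%). This rested on the control used. Without the Dnmt3L heterozygote 6 of 6 were more than 2-fold lower, a count for which the share of all genes was not computed. Their median was then -1.48, against -0.08 over all genes, and 8.42% of all genes lay below that median. Without Pld6 WT the members' median was -0.31, and relative to L/Z markers it was 0.094, so the direction turned. By any amount 5 of 6, all but Prdm9, were below both (34.0%) and 0 of 6 above (35.5%). Rec114 differed by -0.75 (Pld6 KO) and -0.70 (Dnmt3L KO).

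A test of each mutant had 1 library in the mutant arm and the spread between 2 unlike controls, and it called no gene at all. With edgeR's quasi-likelihood test and Benjamini-Hochberg adjustment over 18657 genes, Spo11 in Dnmt3L KO had a log2 fold change of -2.05 (SE 0.88) with adjusted p = 0.607. In Pld6 KO it had -0.84 (SE 0.82) with adjusted p = 1. The share of all genes called was 0.00% in both mutants, and 0 of 6 members were called. DESeq2 had the same 1 library in each mutant arm. Neither its calls nor unadjusted p-values are therefore read as results about the members. With 1 residual degree of freedom the edgeR test measures only the spread between the controls, and its empty result says nothing about the members. An edgeR fit with line as a block and both mutants pooled, added after the values had been seen, also leaves 1 residual degree of freedom. In it 1 of 6 members was called, Spo11, with a log2 fold change of -1.31 (SE 0.27) and adjusted p = 0.0327, lower in 2 of 2 mutants, against 6.72% of the 17686 genes tested. The other members had adjusted p from 0.272 (Zcwpw1) to 0.783 (Prdm9), and Rec114 0.261. This fit takes the change to be alike in both lines and treats the different knockouts as replicates of a single mutant condition. Its residual is the disagreement between the lines, not the spread between the controls or between animals.

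Comparing each mutant with its line's control uses every library once. By this measure each of the 6 members was lower in Pld6 KO than in Pld6 WT, as were 49.2% of all genes. Prdm9 was at 73.0% and Mei1 at 73.1% of the Pld6 WT level, Ccdc36 at 64.6%, Mei4 at 58.5%, Zcwpw1 at 54.4% and Spo11 at 42.5%. In Dnmt3L KO 5 of 6 were lower than in the heterozygote (45.2% of all genes). Mei1 was at 86.6%, Zcwpw1 at 80.0%, Ccdc36 at 79.8% and Mei4 at 60.2%, while Prdm9 stood at 111%. Spo11 was the member furthest below in both lines. It alone was more than 2-fold lower on the FPKM + 1 scale, 1 of 6 in Pld6 KO (9.95% of all genes), 1 of 6 in Dnmt3L KO (12.0%) and 1 of 6 in both (8.06%). A count of 1 in 6 is close to these backgrounds. Rec114 was at 67.6% (Pld6 KO) and 52.8% (Dnmt3L KO). Markers of other cells also differed within the lines. Leydig markers summed to 245 FPKM in Pld6 KO against 27.9 in Pld6 WT, and to 398 in Dnmt3L KO against 378 in the heterozygote. For peritubular and vascular markers the sums were 596 against 140 and 317 against 593. The part of these differences in the own-line values was not tested.

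**Figure D3:**
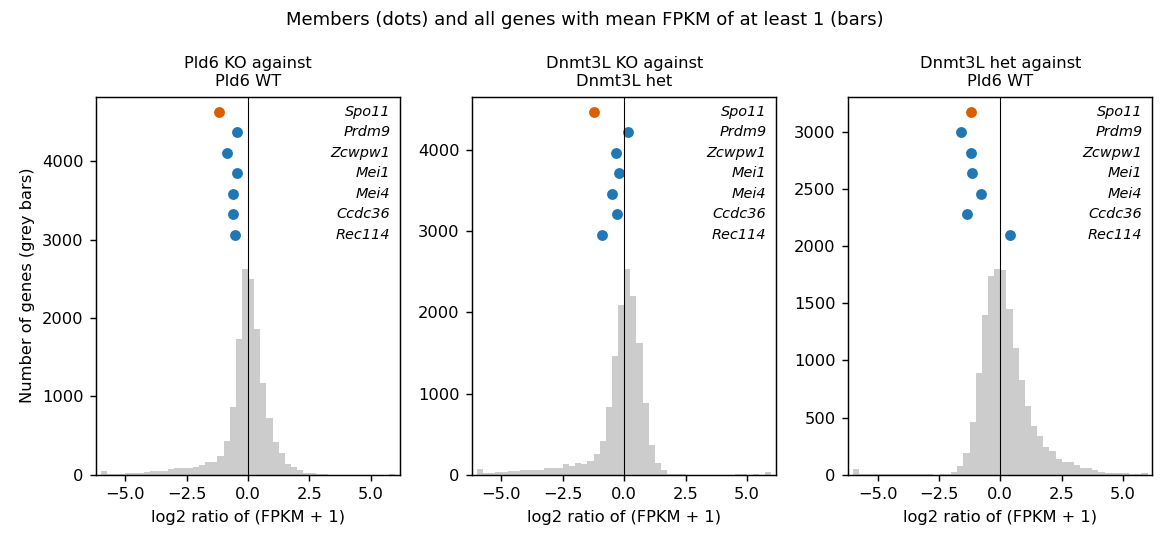
Log2 ratios of FPKM + 1 for Pld6 KO against Pld6 WT, Dnmt3L KO against the Dnmt3L heterozygote, and the heterozygote against Pld6 WT, as histograms over 14416 genes (y axis, number of genes, for the bars only) with ratios beyond 6 drawn at the ends and the members as dots at heights that carry no value. All 7 members lie left of 0 in the first panel, Prdm9 lies right of it in the second (0.15) and Rec114 in the third, and Spo11 is lowest in the first and second (-1.20 and -1.24).

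Ratios within a library take away what moves all the members together. The ratio of Spo11 to Mei1 was 1.36 in the Dnmt3L heterozygote and 1.39 in Pld6 WT, although both genes differed more than 2-fold between these libraries. It was 0.810 (Pld6 KO) and 0.620 (Dnmt3L KO) in the mutants. The ratio of Spo11 to Zcwpw1 was 0.196 and 0.199 in the controls, 0.155 in Pld6 KO and 0.0971 in Dnmt3L KO. Both controls thus lay above both mutants. The same order held for Ccdc36 (1.44 and 1.27 against 0.837 and 0.716), Mei4 (7.12 and 8.57 against 6.22 and 4.68) and Prdm9 (1.15 and 0.864 against 0.502 and 0.409), and so for the 5 other members counted. Rec114 broke it: the ratio of Spo11 to Rec114 was 0.559 in the heterozygote, 1.73 in Pld6 WT, 1.09 in Pld6 KO and 0.419 in Dnmt3L KO, so that Pld6 KO lay above the heterozygote. Relative to the geometric mean of the 5, Spo11 was at 1.26 and 1.21 in the controls, which were 3.8% apart, and at 0.800 (Pld6 KO) and 0.607 (Dnmt3L KO) in the mutants. That is 66.1% and 48.3% of the control of each line. Of all genes, 8.75% lay lower in both mutants than in both controls on this ratio, and 7.35% with a gap at least as wide. Spo11 was singled out after its values had been seen, so this is a description and carries no test. Pachytene and spermatid markers, low in both mutants and not in the controls, moved the same way, and their part in the Spo11 ratio was not tested.

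**Figure D4:**
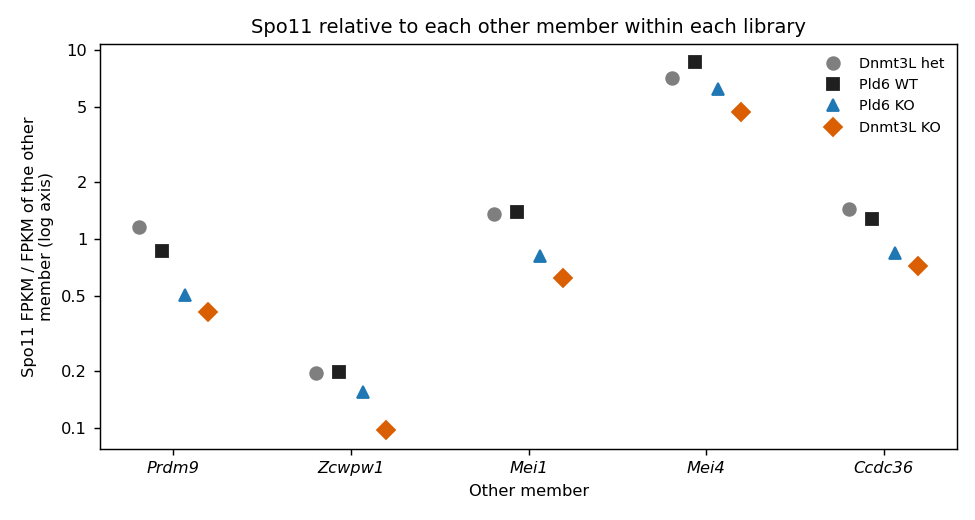
FPKM of Spo11 divided by that of each other member (log axis) in each library. In all 5 columns both mutants lie below both controls, and relative to Mei1 the controls are nearly equal at 1.36 and 1.39.

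Prdm9 was the only member above its line's control in Dnmt3L KO (111%), whereas in Pld6 KO it was below that control and level with Mei1. By level, Spo11 was at rank 2 of 6 in the heterozygote, 3 in Pld6 WT and 5 in both mutants. Prdm9 was at rank 3 in the heterozygote and 2 in the other libraries. As a percentage of Prdm9, Ccdc36 was at 79.6% and 67.8% in the controls against 60.0% in Pld6 KO and 57.1% in Dnmt3L KO. Mei4 was at 16.2% and 10.1% against 8.08% and 8.73%. Zcwpw1 was at 586% and 435% against 324% and 421%, and Spo11 at 115% and 86.4% against 50.2% and 40.9%. Each of these genes was lower in each mutant than in either control. Prdm9 is the shared denominator, so a change in it and a change in the others cannot be told apart here. For Mei1 the groups overlapped, at 84.9% and 62.0% against 62.0% and 66.0%.

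The members were also divided by the geometric mean of FPKM + 1 over the 16 L/Z markers of each library. All of these markers but Tex15 are also genes of the pathway lists described below, so this scaling and those lists are not independent. Against its line's control, the scaled log2 difference of Spo11 was -0.41 (Pld6 KO) and -0.69 (Dnmt3L KO). That of Prdm9 was 0.35 and 0.74, and that of Mei1 0.34 and 0.38, so the pair was level in Pld6 KO. The remaining members were at smaller values, with Zcwpw1 at -0.07 and 0.29, Mei4 at 0.03 and -0.09, and Ccdc36 at 0.17 and 0.27. The median of the 6 was 0.10 (Pld6 KO) and 0.28 (Dnmt3L KO), against 0.70 and 0.62 over all genes, which are shifted upward by this scaling. Rec114 was at 0.23 and -0.30.

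**Figure D5:**
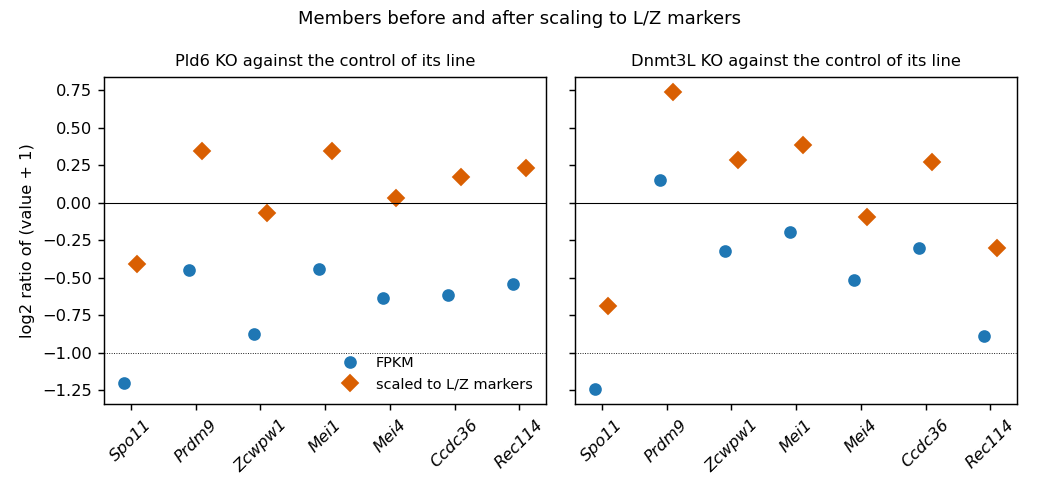
Log2 difference of each member from the control of its own line before and after scaling each library to the geometric mean of FPKM + 1 over 16 L/Z markers, with a dotted line at -1, a 2-fold lower level. After scaling Spo11 stays below 0 in both mutants (-0.41 and -0.69) and Prdm9 lies above it (0.35 and 0.74).

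The wider pathway was read from 4 lists, which hold all of the L/Z markers but Tex15. Of 17 other genes of break formation and hotspots 15 were measured, with median log2 differences from the control mean of 0.24 (Pld6 KO) and -0.29 (Dnmt3L KO), and 1 in each more than 2-fold below both controls. Over all genes the medians were -0.05 and -0.02, and 8.57% and 9.16% lay that far below. The 14 strand invasion genes had medians of -0.31 and -1.08, with 0 and 3 below by that much, and the 12 axis and synapsis genes -0.47 and -1.17, with 1 and 2. Of 6 meiotic entry genes 5 were measured, with medians of -0.12 and -0.64 and 0 below by that much in either mutant. Against the control of each mutant's own line, the other break and hotspot genes had medians of -0.12 (Pld6 KO) and 0.11 (Dnmt3L KO). Both signs thus turned with the control used. Own-line medians were -0.62 and -0.42 for strand invasion, -0.81 and -0.64 for axis and synapsis, and -0.43 and -0.20 for meiotic entry genes. Over all genes they were 0.01 and 0.06. The edgeR test called 0 genes of these lists. Among all 46 pathway genes measured, 5 had a lower own-line difference than Spo11 in Pld6 KO, and 4 did in Dnmt3L KO.

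The named genes at the extremes of these lists put the members in context. Morc2b, a MORC family gene needed for male meiosis, was at 20.5 and 7.36 FPKM in the controls, at 0 fragments in Pld6 KO and at 0.391 FPKM in Dnmt3L KO. With its count of 0 set to a chosen floor of 3 fragments, it was 273-fold lower in Pld6 KO than in the lower control. In Dnmt3L KO it was 18.8-fold lower than in that control. The edgeR adjusted p was 0.102 (Pld6 KO) and 0.155 (Dnmt3L KO). Syce3, a central element protein of the synaptonemal complex, was at 208 and 230 FPKM in the controls, 92.2 in Pld6 KO and 53.0 in Dnmt3L KO. On the other side, the nuclease gene Mre11a (0.45) and the methyltransferase gene Ehmt2 (0.41) had the largest positive log2 differences from the control mean in Pld6 KO. In Dnmt3L KO these were Cdyl (0.38) and the cohesin gene Rec8 (0.09). Own-line differences were 0.09 for Mre11a and 0.22 for Ehmt2 in Pld6 KO, and 0.11 for Cdyl and -0.15 for Rec8 in Dnmt3L KO. Rec8 in Dnmt3L KO, at 31.2 FPKM, lay between the controls (34.7 and 24.1 FPKM). Gm960, which encodes the partner subunit of SPO11 (TOPOVIBL), was at 6.26 FPKM in the heterozygote, 28.0 in Pld6 WT, 10.8 in Pld6 KO and 7.23 in Dnmt3L KO. Its own-line log2 difference was -1.30 (Pld6 KO) and 0.18 (Dnmt3L KO), so it did not share the Spo11 pattern in the Dnmt3L line. Gm960 was named after its values had been seen.

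Genes with a profile like the mean of the 6 members were ranked by Euclidean distance over the 4 libraries, with log2(FPKM + 1) centered for each gene. The nearest of the 14416 was Gm364, at a distance of 0.070, with 128, 294, 185 and 102 FPKM in the Dnmt3L heterozygote, Pld6 WT, Pld6 KO and Dnmt3L KO. Plk5 (0.106), Psd (0.128), the meiotic cohesin gene Rad21l (0.135) and Myh7b (0.15) came next. All 5 were nearer than any member, but they were picked as the nearest of 14416 genes and the members by name. This order therefore does not measure how alike the members are. The members' own distances ran from 0.167 (Ccdc36) to 0.707 (Spo11), and Rec114 stood apart at 1.33.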

How the data were processed

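The libraries were polyA(+) RNA-seq with a strand-specific kit and single reads of 50 bp. The authors aligned reads with TopHat and used Cuffdiff on RefSeq genes, with versions not given in the sources used here; mm10 is the build named for the study. The deposited table holds, for every gene in each library, an estimated count of fragments (97.6% to 97.9% whole within 0.001) and FPKM, which the authors' tool scaled to gene length and depth. It marked 31 values as failed, 0 of them of members. Other columns were not used.

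Differences are log2 ratios of FPKM + 1, a scale that understates changes of low genes, and backgrounds cover genes with a mean FPKM of at least 1. Estimated counts were rounded and tested with edgeR 4.0.16 (quasi-likelihood, TMM, filterByExpr, adjusted p 0.05) in R 4.3.3, on all 4 libraries in 3 groups, with 1 residual degree of freedom and a common dispersion of 0.347. The script was tested on simulated data. DESeq2 1.42.0, limma 3.58.1, RLE size factors, no filter, a pseudocount of 0.1, CPM, a 3-fold limit, L/Z marker scaling and leaving out each control were alternatives, and a fit with line as a block and both mutants pooled was added after seeing the data. Exon overlaps came from GENCODE M21.

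The members and lists were chosen with earlier results of these data known. The named genes are all members, the 2 pathway genes with the largest differences in each direction and mutant, and the 5 nearest profiles. Gm960, outside this rule, was added after its values were seen. Replicates are single libraries that no label ties to separate animals. The p-values from the test of each mutant thus measure the spread between the controls, which may be technical in part. Those of the added fit with line as a block measure how far the lines disagree on the change.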

Additional observations from a re-analysis of the deposited data

Results flagged for a closer look

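Prdm9 differed in direction between the lines. Its log2 difference in FPKM + 1 was -0.45 in Pld6 KO against Pld6 WT and 0.15 in Dnmt3L KO against the Dnmt3L heterozygote. The other 5 members were lower than the control of their own line in both mutants. Each contrast is 1 library against 1, and the difference between them was not tested.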

How the results depend on the processing

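The control chosen set the counts. In Pld6 KO the number of members more than 2-fold lower ranged from 0 to 1 when each control was left out, being 1 without control replicate 1, and the number higher from 0 to 1, being 1 (Prdm9) without control replicate 2. In Dnmt3L KO the number lower ranged from 1 to 6, being 6 without control replicate 1, and it was 0 with a 3-fold limit and 0 with L/Z marker scaling. Of all genes, 9.95% were more than 2-fold lower in Pld6 KO without control replicate 1. In Dnmt3L KO without control replicate 2 the share was 12.0%. Shares were not computed for the 6 lower in Dnmt3L KO or the 1 higher in Pld6 KO. The 3-fold limit and L/Z marker scaling also have no such share. The median of the members ranged from -0.62 to 0.51 in Pld6 KO and from -1.48 to -0.31 in Dnmt3L KO when each control was left out, being positive in Pld6 KO without control replicate 2. With L/Z marker scaling the medians were 0.21 (Pld6 KO) and 0.094 (Dnmt3L KO), both above 0, and the differences of 3 and 5 of the 7 members changed sign. Leaving out control replicate 1 turned the sign of 2 members (Pld6 KO) and 0 members (Dnmt3L KO), and leaving out control replicate 2 that of 3 and 1. With CPM 1 and 0 changed sign, and with a pseudocount of 0.1 FPKM 0 in either. Of the 42 values of single members under alternatives that keep both controls, 35 moved by less than the spread between the controls, and the 7 others were those of Dnmt3L KO under L/Z marker scaling. Leaving out 1 of 2 controls nearly always stays within their spread, so those values are given by their signs only. The count of members called was 0 in each mutant with RLE, without the filter, with DESeq2 and with limma, and 1 (Spo11) in the added edgeR fit with line as a block and both mutants pooled. Each mutant arm held 1 library in all but the added fit, so these counts of 0 say nothing about the members. The edgeR test could not be run without a control, since 0 residual degrees of freedom are left. No paired analysis was possible for either mutant alone because a term for line leaves 0 residual degrees of freedom; the labels give no shared replicate numbers, and pairing by line needs the mutants pooled, as in the added fit. The depth of 250 fragments or more for each member limits these values less than the spread between the controls.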
